A study of Mus musculus with 12 samples.

Results

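Chemokine ligands are small secreted or membrane-bound proteins that direct leukocytes. The genes examined here were those whose symbol on the array begins with Ccl, Cxcl, Cx3cl or Xcl followed by a number, each read from its brightest probe set that carries a single symbol. There were 34 such genes among 18820 genes measured. They were read in 12 arrays of total RNA from 6 untreated male C57BL/6 mice aged 7 to 8 weeks with free access to chow and water. Each mouse gave both primary hepatocytes and liver, which made 4 groups of 3 arrays: JNKΔhepa hepatocytes, WT hepatocytes, JNKΔhepa liver and WT liver. JNKΔhepa mice carried Jnk1Δhepa, a deletion of the floxed Jnk1 gene by a Cre transgene, Albf-Cre, that combines the albumin promoter with enhancers of alpha-fetoprotein, together with Jnk2-/- in every cell. WT mice were Jnk1f/fJnk2+/+ littermates, so the floxed Jnk1 allele was shared and the Albf-Cre transgene and Jnk2 loss came together in the mutants. A difference between the genotypes can therefore not be assigned to one of the alleles, nor to hepatocytes alone.

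Chemokines act through G protein-coupled receptors on leukocytes, and their names follow the spacing of the first cysteines of the protein. In liver, resident macrophages (Kupffer cells), sinusoidal endothelium, stellate cells and hepatocytes can all produce them, and infiltrating cells both make and follow them. Inflammatory ligands are commonly induced by NF-kB, by AP-1, whose Jun subunit is the substrate for which the JNK kinases are named, or by interferon, while homeostatic ligands place lymphocytes and stem cells in tissues at rest.

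Promoter sequences are shown for Cxcl1, Cxcl2, Cxcl10 and Ccl9. Cxcl1 and Cxcl2 are paired because only Cxcl1 was above background in these samples, Cxcl10 because it held all 3 motifs searched, and Ccl9 because it was the other ligand with both an NF-kB and an AP-1 motif. Each line holds the 250 bases before the annotated start in the direction of transcription, from RefSeq on GRCm38.p6. Capitals mark matches on either strand to the NF-kB consensus motif, whose degenerate letters are not spelled out here, to the AP-1 motif TGANTCA or to the interferon regulatory factor motif AANNGAAA. Where 2 overlapping NF-kB matches fall on the same bases, as in Cxcl1, Cxcl2 and Cxcl10, the capitals run over both. The windows are chr5:90890995-90891244 (+ strand), chr5:90903649-90903898 (+ strand), chr5:92348890-92349139 (- strand) and chr11:83578637-83578886 (- strand).
Cxcl1: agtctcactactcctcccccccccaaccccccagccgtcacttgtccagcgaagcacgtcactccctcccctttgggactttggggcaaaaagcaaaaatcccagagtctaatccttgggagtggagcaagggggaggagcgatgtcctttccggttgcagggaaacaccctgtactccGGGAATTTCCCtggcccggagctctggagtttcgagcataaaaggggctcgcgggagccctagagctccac
Cxcl2: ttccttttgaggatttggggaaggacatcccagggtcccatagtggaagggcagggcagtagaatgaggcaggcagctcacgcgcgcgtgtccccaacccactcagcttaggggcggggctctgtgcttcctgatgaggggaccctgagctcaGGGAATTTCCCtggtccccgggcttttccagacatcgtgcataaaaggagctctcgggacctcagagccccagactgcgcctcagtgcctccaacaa
Cxcl10: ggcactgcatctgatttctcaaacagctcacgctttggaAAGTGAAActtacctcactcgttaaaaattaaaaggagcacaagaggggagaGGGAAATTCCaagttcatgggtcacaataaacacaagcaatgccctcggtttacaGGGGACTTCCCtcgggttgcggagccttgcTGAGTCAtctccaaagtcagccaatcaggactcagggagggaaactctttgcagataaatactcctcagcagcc
Ccl9: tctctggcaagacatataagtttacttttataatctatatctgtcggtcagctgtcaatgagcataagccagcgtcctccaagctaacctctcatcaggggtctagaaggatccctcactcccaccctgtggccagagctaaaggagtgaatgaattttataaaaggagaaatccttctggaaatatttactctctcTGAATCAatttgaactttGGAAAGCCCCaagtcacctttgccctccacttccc
Promoters were found for 23 of the 34 ligand genes, 24 promoters in all. In windows of 300 bases that also take in 50 bases after the start, the NF-kB motif stood in 7 of the 24 (29.2%), against 8.46% of 32817 mouse promoters. Those 7 were Ccl1, Ccl9, Ccl20, Cxcl1, Cxcl2, Cxcl3 and Cxcl10. The AP-1 motif stood in 4 (16.7%, against 7.81% of all), those of Ccl9, Ccl28, Cxcl9 and Cxcl10, and the interferon factor motif in 8 (33.3%, against 23.9% of all), Cxcl10 and Ccl19 among them. Narrower forms of the NF-kB and interferon factor motifs were searched first, and the forms shown replaced them after those counts were seen. The narrower NF-kB form stood in the same 7 promoters, against 5.56% of all, and the narrower interferon form in 3 (12.5%, against 3.43% of all), those of Ccl19, Cxcl10 and Cxcl14, so the share for the interferon motif depends on the form chosen. A match describes the letters of the window and shows neither a site in use nor a cause of any value below.

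Values are the deposited log2 levels. Array medians were 3.22 to 3.24 in JNKΔhepa hepatocytes, 3.24 to 3.28 in WT hepatocytes, 4.10 to 4.12 in JNKΔhepa liver and 4.09 in WT liver, and arrays of a group correlated at r between 0.987 and 0.993 across probe sets. The Jnk2 gene (Mapk9) was lower in JNKΔhepa than in WT by a log2 difference of -5.47 in hepatocytes and -5.90 in liver, and Jnk1 (Mapk8) by -0.61 and -0.40, with limma adjusted p from 1.05e-09 to 0.0018 in hepatocytes and from 4.02e-10 to 0.027 in liver. Whether these probe sets lie in the deleted parts is not given in the sources used here. None of 9 hepatocyte markers was near background in any group. In hepatocytes none of 12 endothelial markers was near background in either genotype, and of the 13 macrophage markers Marco alone was, in JNKΔhepa. Of the 10 stellate cell markers 3 were near background in JNKΔhepa hepatocytes (Des, Col1a2 and Hand2) and 2 in WT hepatocytes (Des and Hand2). These 4 markers were named after their values were seen.

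**Figure D1:**
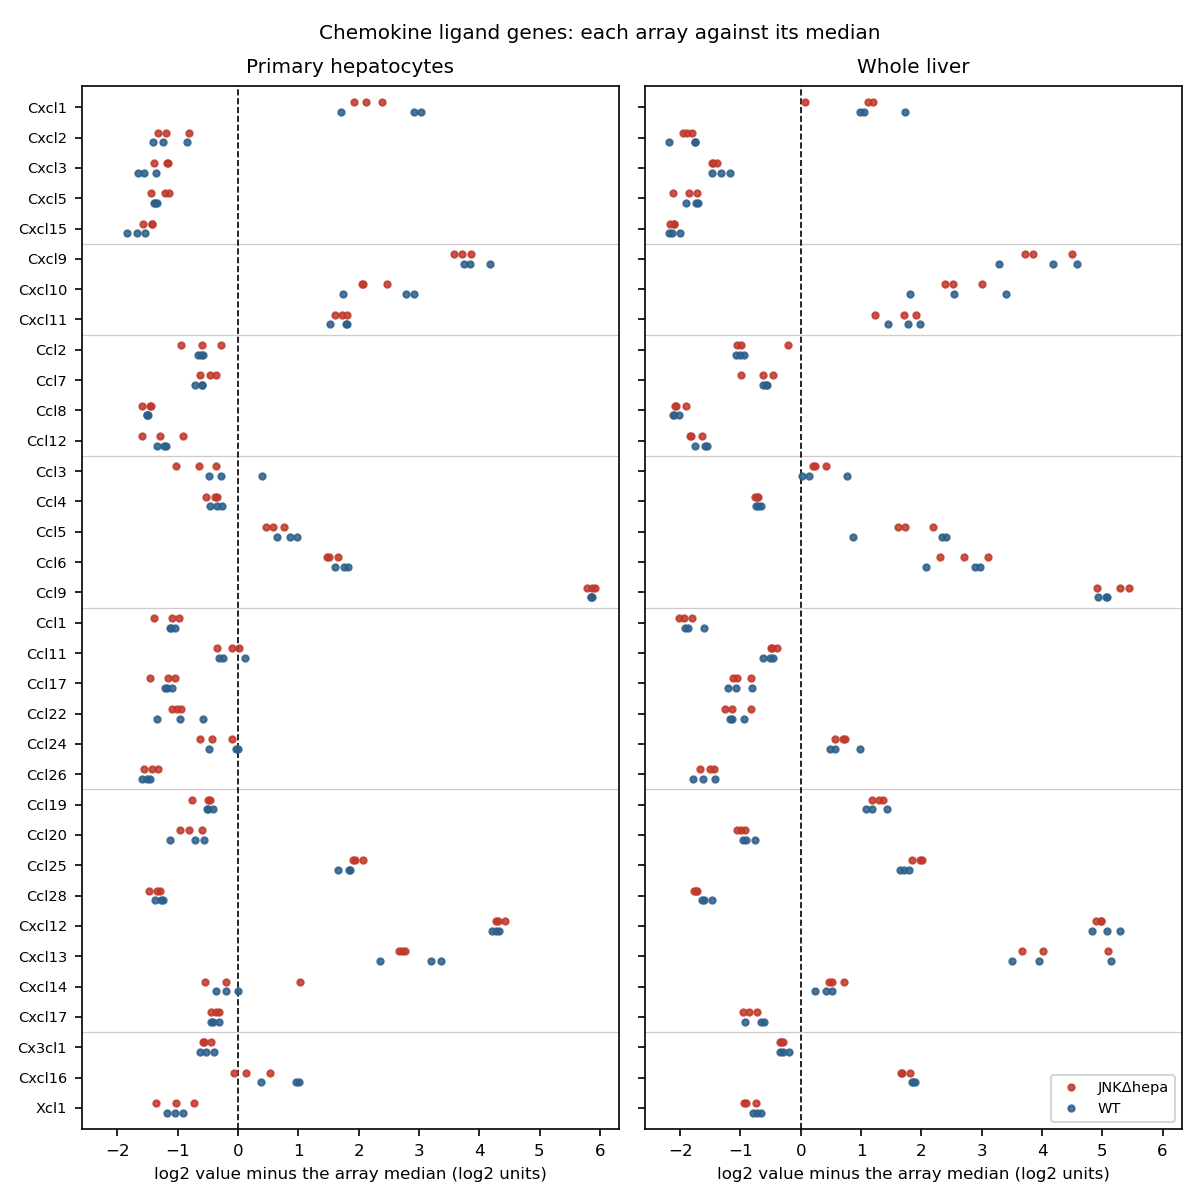
Each of the 34 ligand genes in the 12 arrays, as the log2 value minus the median of the same array (x axis, log2 units), with hepatocytes at left and liver at right; points are single arrays, red for JNKΔhepa above blue for WT, and grey lines separate the groups of ligands in the order of the text. In both tissues 10 ligands stand right of the dashed median in every array, and 18 lie left of it in every array; positions of different genes are not comparable as amounts, because each probe set has its own response.

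A ligand was called near background in a group when all 3 arrays lay below their own array median, and above background when all 3 lay over it. By this measure 10 ligands were above background in all 4 groups: Cxcl1, Cxcl9, Cxcl10, Cxcl11, Cxcl12, Cxcl13, Ccl5, Ccl6, Ccl9 and Ccl25. Another 18 were near background in all 4 groups, among them Cxcl2, Cxcl3 and Cxcl5, all 4 of the CCR2 group (Ccl2, Ccl7, Ccl8 and Ccl12), Ccl4, Ccl20, Cx3cl1 and Xcl1. The remaining 6, Ccl3, Ccl11, Ccl19, Ccl24, Cxcl14 and Cxcl16, differed between groups in this respect. In liver 15 were above background in each genotype, and in hepatocytes 10 were in JNKΔhepa and 11 in WT, with Cxcl16 the one that separated the counts. By construction an array median has as many values below it as above it. How many of all genes were near or above background by this measure was not counted. The counts therefore describe the ligands alone and do not set them apart from genes in general.

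The first question was whether loss of the JNK kinases moved ligand expression in untreated mice. No ligand passed the threshold. With limma (Benjamini-Hochberg adjusted p under 0.05 over all 18820 genes), 0 of 34 ligands were called in hepatocytes, where 0.84% of all genes were, and 0 of 34 in liver, where 0.925% were. The test of whether the genotype difference itself differed between hepatocytes and liver called 0 of 34, and 0.0106% of all genes. At an unadjusted p under 0.05 there were 3 ligands in hepatocytes (Cxcl16, Ccl3 and Cxcl3), 1 in liver (Ccl25) and 1 in the test of the difference between tissues (Cxcl3), against 12.6%, 12.5% and 7.22% of all genes. The median ligand differed by -0.032 in hepatocytes and -0.0061 in liver, beside -0.0018 and 0.016 for all genes. In hepatocytes 25 of the 34 values were below 0, against 50.6% of all genes, and in liver 18 were, against 45.6%. The 95% intervals reached from 0.17 to 0.89 log2 units either side of the estimate, with a median of 0.29. The widest was that of Cxcl13, -1.16 to 0.61 in hepatocytes and -0.82 to 0.96 in liver.

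**Figure D2:**
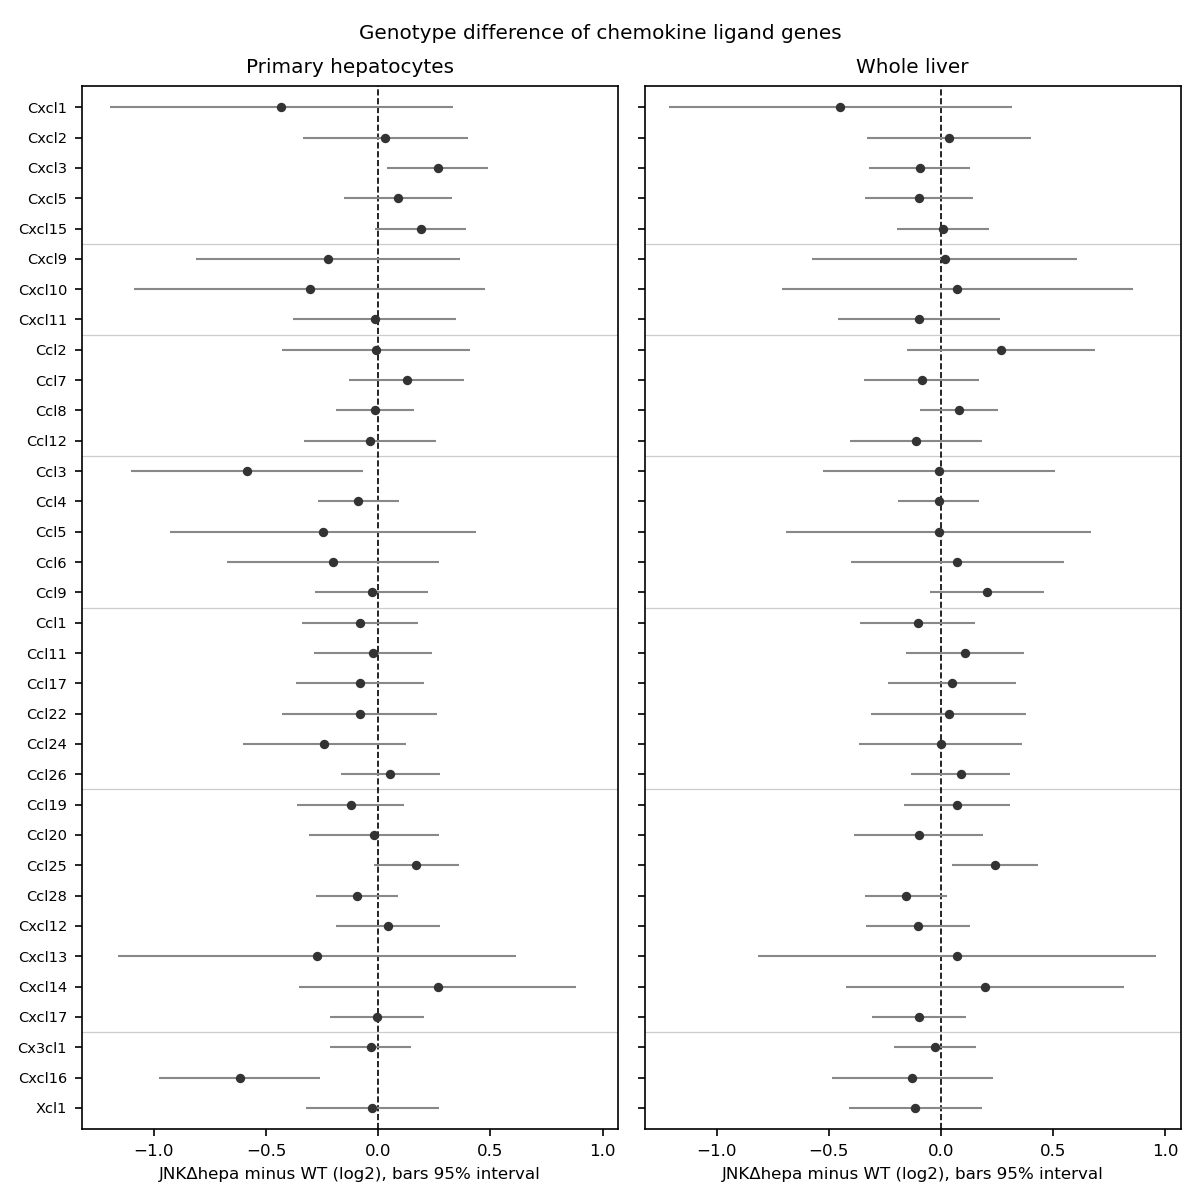
JNKΔhepa minus WT for each of the 34 ligands (x axis, log2 units), with hepatocytes at left and liver at right; points are limma estimates from 3 arrays a group and bars their 95% intervals. Cxcl16 in hepatocytes, at -0.62, stands farthest from 0 relative to its interval, and no ligand passed the adjusted threshold.

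The ELR-type CXC ligands attract neutrophils, in mice chiefly through CXCR2. Cxcl1, a major one of them, had 5.62, 5.18 and 5.35 in JNKΔhepa hepatocytes and 6.27, 4.97 and 6.20 in WT hepatocytes. In liver it had 5.21, 5.31 and 4.18 in JNKΔhepa and 5.07, 5.14 and 5.83 in WT. The JNKΔhepa arrays lay between the WT values in hepatocytes and overlapped them in liver. The differences were -0.43 (SE 0.353, adjusted p 0.695) in hepatocytes and -0.45 (SE 0.353, adjusted p 0.685) in liver, with intervals of -1.20 to 0.33 and -1.21 to 0.32. Cxcl2, a close relative from the same chromosome region, stayed near background in all 12 arrays, between 1.85 and 2.43. Cxcl3, also a CXCR2 ligand, had 1.84, 2.08 and 2.07 in JNKΔhepa hepatocytes and 1.88, 1.60 and 1.71 in WT hepatocytes, all below the array medians, so that its difference of 0.26 (adjusted p 0.312) is between dim values. Cxcl5, a further neutrophil attractant, and Cxcl15, known chiefly from lung, were near background throughout.

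The CXCR3 ligands Cxcl9, Cxcl10 and Cxcl11 are interferon-induced attractants of T and NK cells. In C57BL/6 mice Cxcl11 is known to carry a frameshift, so its transcript is not a measure of protein. Cxcl9 had 7.09, 6.96 and 6.82 in JNKΔhepa hepatocytes and 7.42, 6.99 and 7.13 in WT hepatocytes. In liver it had 8.59, 7.96 and 7.83 in JNKΔhepa and 8.28, 7.38 and 8.68 in WT. Cxcl9 therefore varied more between livers of one genotype than the genotypes differed (-0.22, SE 0.272, in hepatocytes and 0.016, SE 0.272, in liver, adjusted p 0.816 and 0.992). Cxcl10 had 5.69, 5.32 and 5.30 in JNKΔhepa hepatocytes and 6.02, 4.997 and 6.20 in WT hepatocytes. In liver it had 7.11, 6.52 and 6.63 in JNKΔhepa and 6.63, 5.91 and 7.50 in WT. The 3 JNKΔhepa arrays again lay inside the WT range in each tissue, and the differences were -0.31 in hepatocytes and 0.073 in liver (SE 0.361 each, adjusted p 0.810 and 0.970). Cxcl11 spanned 4.86 to 5.04 in JNKΔhepa hepatocytes, 4.78 to 5.09 in WT hepatocytes, 5.35 to 6.03 in JNKΔhepa liver and 5.54 to 6.06 in WT liver, with differences of -0.017 in hepatocytes and -0.098 in liver.

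The monocyte attractants of the CCR2 group gave little signal. Ccl2 had 2.94, 2.31 and 2.64 in JNKΔhepa hepatocytes and 2.58, 2.67 and 2.67 in WT hepatocytes, and 3.89, 3.13 and 3.06 in JNKΔhepa liver against 3.09, 3.16 and 3.02 in WT liver. One JNKΔhepa mouse held the highest Ccl2 value in each tissue, still below the array median. Ccl7 and Ccl12, which also bind CCR2, and Ccl8, whose mouse form is known to act on CCR8, were near background in all arrays, and at these levels a difference between groups was not measurable.

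Ccl3, Ccl4, Ccl5, Ccl6 and Ccl9 attract monocytes, macrophages or T cells. Ccl5 (RANTES), a T cell and platelet product, had 3.80, 4.01 and 3.71 in JNKΔhepa hepatocytes and 4.22, 3.90 and 4.14 in WT hepatocytes. In liver Ccl5 had 5.83, 5.73 and 6.31 in JNKΔhepa and 6.43, 4.96 and 6.51 in WT. The groups overlapped in both tissues. Ccl6, a CCR1 ligand of rodents, had 4.70, 4.90 and 4.75 in JNKΔhepa hepatocytes and 5.01, 5.07 and 4.88 in WT hepatocytes, and 7.20, 6.82 and 6.41 in JNKΔhepa liver and 7.07, 6.17 and 6.98 in WT liver. Ccl9, also a CCR1 ligand known from rodents, had 9.01, 9.16 and 9.12 in JNKΔhepa hepatocytes and 9.10, 9.13 and 9.14 in WT hepatocytes, a difference of -0.030 with an interval of -0.28 to 0.22. In liver Ccl9 had 9.55, 9.41 and 9.02 in JNKΔhepa and 9.18, 9.03 and 9.16 in WT, where the values overlapped (0.20, SE 0.117, adjusted p 0.526).

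Ccl3 (MIP-1α), a macrophage product, had 2.57, 2.22 and 2.87 in JNKΔhepa hepatocytes and 2.96, 2.78 and 3.67 in WT hepatocytes. All but the highest WT array were below their array median, and the groups overlapped. The difference was -0.58 (SE 0.239, p 0.0299, adjusted p 0.33), and -0.32 without WT hepatocyte replicate 3, the highest array (range -0.76 to -0.32 with 1 array left out). In liver Ccl3 was just above the median, at 4.52, 4.35 and 4.32 in JNKΔhepa and 4.24, 4.11 and 4.87 in WT, with a difference of -0.011. Ccl4 (MIP-1β), the companion of Ccl3, was near background in all groups.

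Of the eotaxins and the ligands of CCR3, CCR4 and CCR8, associated with eosinophils and allergic inflammation, Ccl24 (eotaxin-2), made by macrophages, was above background in liver. It had 3.13, 2.81 and 2.61 in JNKΔhepa hepatocytes and 2.77, 3.22 and 3.28 in WT hepatocytes, and 4.79, 4.68 and 4.84 in JNKΔhepa liver against 5.08, 4.58 and 4.66 in WT liver. The genotypes overlapped in both tissues. Ccl11 (eotaxin) lay around the array median in hepatocytes and below it in liver, and Ccl1, Ccl17, Ccl22 and Ccl26 were near background throughout. Genotype differences in this group ran from -0.24 to 0.05 in hepatocytes and from -0.11 to 0.11 in liver.

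Among the homeostatic ligands, Cxcl12, the CXCR4 ligand that holds stem cells and lymphocytes in place, had 7.66, 7.52 and 7.54 in JNKΔhepa hepatocytes and 7.45, 7.58 and 7.56 in WT hepatocytes. In liver it had 9.08, 9.005 and 9.09 in JNKΔhepa and 9.17, 8.92 and 9.38 in WT. Its genotype differences were bounded within -0.19 to 0.27 in hepatocytes and -0.34 to 0.13 in liver. Cxcl13, the B cell attractant that acts on CXCR5, had 5.90, 5.96 and 6.01 in JNKΔhepa hepatocytes and 6.61, 5.61 and 6.48 in WT hepatocytes. In liver it had 8.11, 7.78 and 9.20 in JNKΔhepa and 8.05, 7.60 and 9.23 in WT, so that 1 mouse of each genotype stood more than 1 log2 unit above the others of its group while the genotypes overlapped.

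Ccl25, the CCR9 ligand known from thymus and gut, was the only ligand whose genotypes did not overlap in both tissues. It had 5.29, 5.19 and 5.15 in JNKΔhepa hepatocytes and 4.90, 5.10 and 5.11 in WT hepatocytes. In liver it had 6.07, 5.96 and 6.13 in JNKΔhepa and 5.88, 5.80 and 5.75 in WT. All 3 JNKΔhepa arrays were above all 3 WT arrays in each tissue, by 0.17 (SE 0.088, adjusted p 0.477) in hepatocytes and 0.24 (SE 0.088, p 0.0172, adjusted p 0.261) in liver, and neither difference passed the threshold. Of all genes, 14.7% did not overlap in hepatocytes and 20.4% in liver, where Ccl28 and Cxcl16 were the other ligands, both lower in JNKΔhepa. The second probe set of Ccl25 gave 0.01 in hepatocytes and 0.08 in liver.

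Ccl19, the CCR7 ligand that guides dendritic cells and T cells, had 2.46, 2.77 and 2.75 in JNKΔhepa hepatocytes and 2.73, 2.84 and 2.78 in WT hepatocytes, and 5.40, 5.48 and 5.30 in JNKΔhepa liver and 5.52, 5.17 and 5.27 in WT liver. Cxcl14, an orphan-type ligand of epithelium, had 4.25, 2.70 and 3.04 in JNKΔhepa hepatocytes and 3.04, 2.89 and 3.27 in WT hepatocytes, where a single JNKΔhepa array stood above the rest. In liver Cxcl14 had 4.81, 4.58 and 4.63 in JNKΔhepa and 4.50, 4.62 and 4.32 in WT. Neither ligand differed by genotype at the threshold, and Ccl20, Ccl28 and Cxcl17, which act at epithelial surfaces, were near background.

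Cxcl16 is a transmembrane ligand whose receptor CXCR6 marks NKT and T cells that patrol the sinusoids. It had 3.75, 3.17 and 3.37 in JNKΔhepa hepatocytes and 4.21, 3.64 and 4.30 in WT hepatocytes. The highest JNKΔhepa array lay above the lowest WT array, so the groups overlapped. The difference was -0.62 (SE 0.166, 95% interval -0.98 to -0.26, p 0.0026, adjusted p 0.118). In liver Cxcl16 had 5.91, 5.80 and 5.78 in JNKΔhepa and 5.95, 5.99 and 5.93 in WT, a difference of -0.13 (SE 0.166, adjusted p 0.837), and the difference between the tissues in this effect was -0.49 (SE 0.234, adjusted p 0.698). Leaving out JNKΔhepa hepatocyte replicate 1 gave -0.78 (adjusted p 0.036), and leaving out WT hepatocyte replicate 2 gave -0.82 (adjusted p 0.013), so either array decided whether Cxcl16 was called. A second probe set that names both Cxcl16 and its neighbour Zmynd15 gave -0.37 in hepatocytes (adjusted p 0.463). Cx3cl1, the other membrane-bound ligand, and Xcl1, a product of NK and CD8 T cells, were near background.

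In the same comparison of hepatocytes the macrophage, endothelial and stellate marker lists had medians below 0, though few of their genes were called. Of all genes 0.84% were called there, or 151 of 18820 after joint normalisation. The lists of neutrophils and monocytes, lymphocytes and NK cells, cholangiocytes and platelets had medians of 0.014, 0.031, 0.059 and 0.0020. None of their genes was called, and most were near background in hepatocytes. Of 13 Kupffer cell and macrophage markers the median difference between JNKΔhepa and WT hepatocytes was -0.75, with 1 called lower (the complement gene C1qb, -1.08, adjusted p 0.0225) and 0 higher, and their summed log2 level spanned 9.12 to 9.64 in JNKΔhepa hepatocytes and 9.64 to 10.34 in WT hepatocytes. The macrophage marker Mpeg1, named after its value was seen, ran the other way, at 0.54 (adjusted p 0.136). The 12 markers of sinusoidal endothelium had a median difference of -0.49, with summed levels of 10.18 to 10.72 in JNKΔhepa hepatocytes and 10.60 to 11.00 in WT hepatocytes, and 0 called, or 1 (Stab1, -0.46, adjusted p 0.0493) after joint normalisation. The 10 stellate cell markers had a median of -0.28. In liver the medians of the macrophage, endothelial and stellate lists were -0.12, 0.11 and -0.14. The part these cells have in the Cxcl16 and Ccl3 values was not tested, and in bulk RNA fewer cells of a type and less RNA per cell cannot be told apart.

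**Figure D3:**
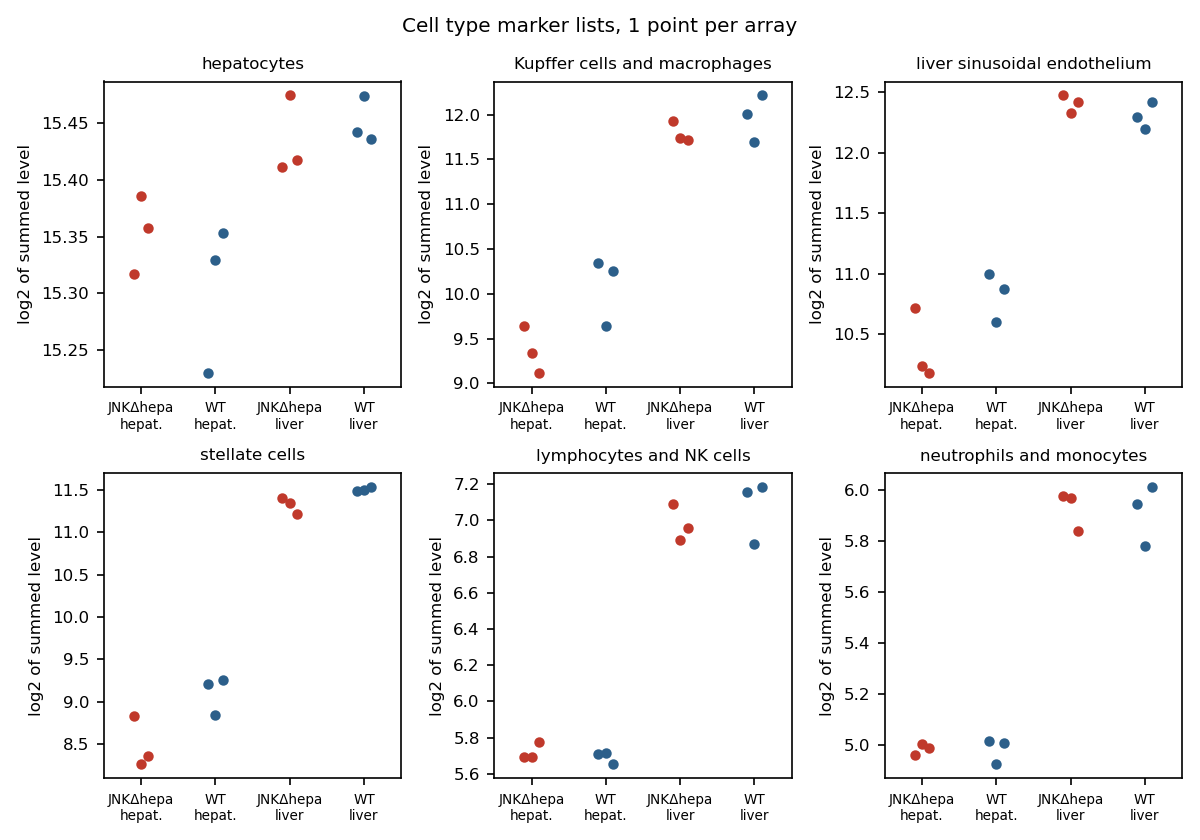
Log2 of the summed level of each marker list (y axis, a separate scale in each panel) in the 4 groups, with 1 point per array in red for JNKΔhepa and blue for WT. All marker lists, that of hepatocytes included, lie lower in all hepatocyte arrays than in all liver arrays. Most single genes do so too on deposited values, 86.2% within JNKΔhepa and 84.6% within WT, so this does not set a list apart. The macrophage list spans 9.12 to 9.64 in JNKΔhepa hepatocytes and 9.64 to 10.34 in WT hepatocytes.

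The second question was which ligands go with isolated hepatocytes and which with whole liver. This comparison depends on scale, because the deposited hepatocyte arrays lay lower for nearly all genes: on deposited values 85.9% of all genes were lower in JNKΔhepa hepatocytes than in JNKΔhepa liver and 85.6% in WT. Against that, 29 of 34 ligands were lower and 0 higher in JNKΔhepa (0.616% of all genes were higher), and 30 lower and 0 higher in WT (0.6% of all genes were higher), which is near the share of all genes. Values of ligands and of named genes are therefore given on deposited values and after all 12 arrays were quantile-normalised together. On the second scale 12 ligands were lower and 3 higher in JNKΔhepa (15.6% and 14.3% of all genes), and 11 lower and 3 higher in WT (14.8% and 13.6% of all genes). The median ligand then stood at -0.11 in JNKΔhepa and -0.16 in WT, beside 0.014 and 0.016 for all genes. After each array was centred on its median instead, 9 ligands were lower and 12 higher in JNKΔhepa (10.4% and 50% of all genes), and 8 lower and 12 higher in WT (9.84% and 46.6%), so the number called higher depended on the scale. After joint normalisation 10 ligands were lower in both genotypes, and 8 of these were also lower in both after centring: Ccl5, Ccl6, Ccl19, Ccl24, Cxcl12, Cxcl13, Cxcl16 and Cx3cl1, the last of them dim. Both tissues came from the same 6 mice, and liver contains hepatocytes, so the compared samples are not separate cell types.

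**Figure D4:**
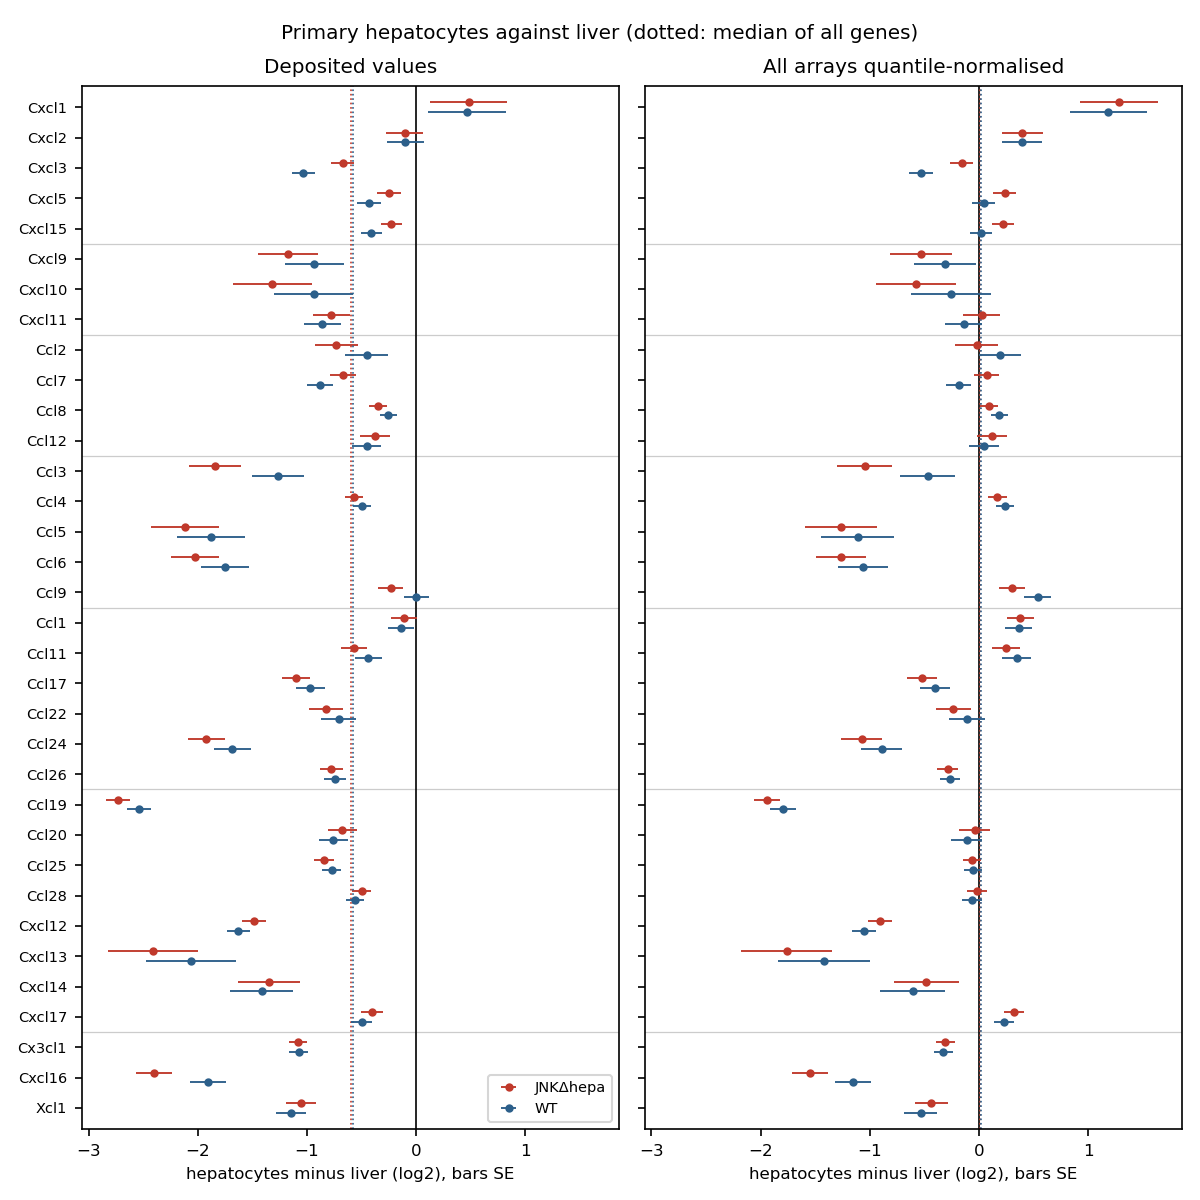
Hepatocytes minus liver for each ligand (x axis, log2 units), on deposited values at left and after joint quantile normalisation at right; points are limma estimates (red JNKΔhepa, blue WT), bars 1 SE, and dotted lines the median of all genes. Ccl19, Cxcl13, Cxcl16, Ccl5 and Ccl6 stay left of 0 on both scales, and Cxcl1 lies right of 0 on both.

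Ccl19 had the largest difference on deposited values in both genotypes. The log2 difference between hepatocytes and liver was -2.73 in JNKΔhepa (SE 0.110, adjusted p 3.77e-09) and -2.54 in WT (SE 0.110, adjusted p 7.41e-09). All Ccl19 values in hepatocytes were below their array medians, so the size of the difference is not exact. After joint normalisation the differences were -1.94 and -1.80. All 5 single-symbol probe sets for Ccl19 gave -2.73 to -2.94 in JNKΔhepa and -2.54 to -2.61 in WT, and since near-identical copies of the gene exist, which copy was read is uncertain. Cxcl13 differed by -2.41 in JNKΔhepa and -2.06 in WT (adjusted p 0.000137 and 0.000473), or -1.76 and -1.42 after joint normalisation. Cxcl16, with 1 of 3 JNKΔhepa hepatocyte values below its array median, differed by -2.40 in JNKΔhepa and -1.91 in WT (adjusted p 1.01e-07 and 7.66e-07), or -1.55 and -1.15. On deposited values every hepatocyte array was below every liver array of its genotype for these 3 ligands. The same held for 28 of the 34 ligands in each genotype, and for 86.2% of all genes in JNKΔhepa and 84.6% in WT.

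Ccl5 differed by -2.12 in JNKΔhepa and -1.88 in WT, or -1.26 and -1.11 after joint normalisation, and Ccl6 by -2.03 and -1.75, or -1.26 and -1.06. Ccl24 differed by -1.92 in JNKΔhepa and -1.68 in WT, or by -1.07 and -0.89 after joint normalisation, against hepatocyte values that were all below their array medians. Cxcl12 differed by -1.48 in JNKΔhepa and -1.63 in WT, or by -0.91 and -1.05. All 4 ligands passed the threshold in both genotypes on both scales.

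Neither Cxcl1 nor Ccl9 was called lower in hepatocytes on deposited values, and both had positive differences in each genotype after joint normalisation. On the joint scale Cxcl1 and the dim Ccl1 were called higher in both genotypes. Ccl9 was called higher in WT alone and the dim Cxcl17 in JNKΔhepa alone. Of all genes, 14.3% were called higher on that scale in JNKΔhepa and 13.6% in WT. Cxcl1 was not called between tissues on deposited values, where it differed by 0.48 in JNKΔhepa and 0.47 in WT (SE 0.353 each, adjusted p 0.210 and 0.225). With 1 array left out the difference ranged from 0.12 (without JNKΔhepa liver replicate 3) to 0.69 in JNKΔhepa, and from 0.24 (without WT hepatocyte replicate 1) to 0.89 (without WT hepatocyte replicate 2) in WT. After joint normalisation it was higher in hepatocytes, by 1.28 (adjusted p 0.016) and 1.19 (adjusted p 0.0247). In 2 of 6 mice, JNKΔhepa mouse 2 and WT mouse 2, the deposited Cxcl1 value was nonetheless slightly lower in hepatocytes than in liver. Ccl9 differed by -0.23 in JNKΔhepa and 0.0017 in WT on deposited values, and by 0.30 (adjusted p 0.0772) and 0.54 (adjusted p 0.00566) after joint normalisation. The sign for Ccl9 in JNKΔhepa therefore depended on the scale.

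The CXCR3 ligands were lower in hepatocytes on deposited values, and none was called after joint normalisation. Cxcl9 differed by -1.17 in JNKΔhepa and -0.93 in WT, or by -0.53 and -0.31 after joint normalisation. Cxcl10 differed by -1.32 and -0.94, or by -0.57 and -0.26. Cxcl11 differed by -0.78 and -0.86, or by 0.025 and -0.14. The same held for Ccl25, at -0.84 and -0.77 on deposited values and -0.065 and -0.053 after joint normalisation, and for Cxcl14, at -1.35 and -1.42 or -0.48 and -0.61. With the shift shared by most genes taken off, the remaining differences of these ligands did not pass the threshold. Ccl3 was lower on the joint scale in JNKΔhepa (-1.04, adjusted p 0.00765) but was not called in WT (-0.47, adjusted p 0.187), and the genotypes' difference in this effect was not called on deposited values (-0.57, SE 0.338, adjusted p 0.764).

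Markers of non-hepatocyte cells were lower in hepatocytes beside these ligands. All 13 macrophage markers were lower on deposited values in each genotype, with medians of -2.47 in JNKΔhepa and -1.84 in WT, or -1.84 and -1.19 after joint normalisation, when 11 and 12 passed. All 12 endothelial markers were lower, with medians of -2.27 in JNKΔhepa and -1.69 in WT, or -1.61 and -1.04 after joint normalisation. All 10 stellate cell markers were lower, with medians of -2.34 and -2.24, or -1.55 and -1.51, and all of both lists passed on the joint scale too. Summed macrophage levels were 9.12 to 9.64 in JNKΔhepa hepatocytes and 9.64 to 10.34 in WT hepatocytes, against 11.72 to 11.93 in JNKΔhepa liver and 11.69 to 12.22 in WT liver. The hepatocyte markers had medians of -0.10 in JNKΔhepa and -0.16 in WT, and 0.020 and -0.027 after joint normalisation. These counts stand beside the 85.9% and 85.6% of all genes that were lower on deposited values in JNKΔhepa and WT, and the 15.6% and 14.8% on the joint scale. Lymphocyte and NK cell markers were lower for 10 of 11 genes in each genotype on deposited values (6 in JNKΔhepa and 7 in WT on the joint scale), neutrophil and monocyte markers for 7 of 7 (3 and 3), cholangiocyte markers for 6 of 7 (4 and 4, with 1 higher in each genotype on the joint scale) and platelet markers for 5 of 5 (3 and 3, with 1 higher in JNKΔhepa on the joint scale), deposited counts that are near the share of all genes. The part that these cell types have in the lower ligand values was not tested.

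The receptors of these ligands gave little signal in any group. Of 19 listed receptor genes 18 were measured, of which 17 were near background in hepatocytes of each genotype, 15 in JNKΔhepa liver and 16 in WT liver, and 0 were called by genotype in either tissue. Ccr2, the monocyte receptor, had 4.34, 4.15 and 3.77 in JNKΔhepa liver and 3.47, 3.88 and 3.94 in WT liver, a difference of 0.32 (adjusted p 0.403), given after its values were seen. Between tissues Ccr2 differed by -2.15 in JNKΔhepa and -1.99 in WT, and by -1.47 and -1.37 after joint normalisation, from arrays that in hepatocytes were all below background. Cxcr6, the receptor of Cxcl16, was near background in all 4 groups. Of 4 measured atypical receptors, Ccrl2 had the smallest p between tissues, at -2.16 in JNKΔhepa and -2.13 in WT, or -1.37 and -1.40 after joint normalisation, against hepatocyte values all below their array medians, and none was called by genotype. The platelet chemokines Pf4 and Ppbp, which fall outside the symbol rule, differed between hepatocytes and liver by -1.67 and -2.42 in JNKΔhepa and by -1.61 and -2.06 in WT, or by -0.96 and -1.60 and by -0.94 and -1.31 after joint normalisation. Both were near background in hepatocytes, and Pf4 also in WT liver, so these sizes are not exact.

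The genes that induce ligands differed by genotype in 2 cases, where 0.84% of all genes were called in hepatocytes and 0.925% in liver. Among 15 cytokines known to induce chemokines, Il18, an interferon-gamma-inducing cytokine, was the single gene called. It had 6.18, 6.40 and 6.16 in JNKΔhepa hepatocytes and 5.11, 5.06 and 5.32 in WT hepatocytes, and 6.91, 7.01 and 6.71 in JNKΔhepa liver against 5.86, 6.06 and 6.17 in WT liver. The arrays did not overlap, and the differences were 1.08 (adjusted p 0.000597) in hepatocytes and 0.84 (adjusted p 0.00383) in liver. Among 18 measured NF-kB and AP-1 genes, Jun alone was called, at 7.98, 7.66 and 7.81 in JNKΔhepa hepatocytes and 8.74, 8.36 and 8.86 in WT hepatocytes, a difference of -0.84 (adjusted p 0.0135). In liver Jun had 5.79, 5.75 and 5.86 in JNKΔhepa and 6.38, 6.79 and 6.45 in WT, a difference of -0.74 (adjusted p 0.0264). None of the 5 measured interferon factors was called by genotype, and neither was any of Cxcl9, Cxcl10 and Cxcl11. Between hepatocytes and liver, 14 of the 15 cytokines were lower in each genotype on deposited values (8 in JNKΔhepa and 6 in WT on the joint scale, where 1 was higher in JNKΔhepa), beside 85.9% and 85.6% of all genes on deposited values and 15.6% and 14.8% on the joint scale. The macrophage cytokine Il1b had the smallest p, at -2.47 in JNKΔhepa and -2.59 in WT, or -1.75 and -1.91 after joint normalisation, with all hepatocyte values below their array medians. All 5 interferon factors were lower on deposited values in each genotype, and 3 in JNKΔhepa and 2 in WT on the joint scale.

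Between tissues some immediate-early genes of this list were higher in hepatocytes than in liver even on deposited values. Jun differed by 2.02 in JNKΔhepa and 2.11 in WT (2.72 and 2.72 after joint normalisation) and Egr1 by 2.91 and 2.54 (3.65 and 3.25). Fos differed by 2.27 and 2.90 (2.91 and 3.54) and Atf3 by 0.96 and 1.69 (1.75 and 2.47), all called on both scales. The sizes for Fos and Atf3 are not exact, since all liver values of Fos and 2 of 3 of Atf3 in each genotype were below their array medians. Others did not share this on deposited values, where the median of all genes was -0.60 in JNKΔhepa and -0.58 in WT. Fosb differed by -0.38 in JNKΔhepa and -0.24 in WT, neither called. Fosl2 differed by 0.16 in JNKΔhepa and -0.63 in WT, the second called lower, but not so after joint normalisation. Of these genes Fos, Egr1, Atf3, Fosb and Fosl2 were named after their values were seen. Of the 18 genes 6 were higher and 9 lower in each genotype on deposited values. Of all genes, 0.616% were higher and 85.9% lower in JNKΔhepa, and 0.6% and 85.6% in WT. After joint normalisation 8 of the 18 were higher in JNKΔhepa and 7 in WT, with 0 lower. On that scale 14.3% of all genes were higher and 15.6% lower in JNKΔhepa, and 13.6% and 14.8% in WT. WT hepatocyte replicate 2 had the lowest value of its group for Fos (4.45, beside 6.52 and 6.18), for Egr1 (6.18, beside 8.11 and 8.31) and for Cxcl1 (4.97, beside 6.27 and 6.20). The part of these genes in the Cxcl1 level was not tested.

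Several ligands varied widely between mice of one genotype. The range over 3 arrays reached 1.64 for Cxcl13, 1.59 for Cxcl10, 1.55 for Ccl5 and 1.29 for Cxcl9 in WT liver, and 1.42 for Cxcl13 and 1.13 for Cxcl1 in JNKΔhepa liver. Among ligands above background the median SD was 0.096 in JNKΔhepa hepatocytes, 0.17 in WT hepatocytes, 0.28 in JNKΔhepa liver and 0.27 in WT liver. WT liver replicate 2 was the lowest of its group for 11 of 15 ligands above background, and the hepatocytes of the same mouse for 7 of 11. For how many of all genes these arrays were the lowest was not counted. The summed macrophage markers of that mouse were also the lowest of each WT group, at 9.64 in hepatocytes (beside 10.34 and 10.25) and 11.69 in liver (beside 12.01 and 12.22). So were its endothelial markers, at 10.60 in hepatocytes (beside 11.00 and 10.88) and 12.20 in liver (beside 12.30 and 12.42), and its neutrophil and monocyte markers. The other marker lists were not the lowest in both samples. The part of these marker levels in the ligand values was not tested.

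**Figure D5:**
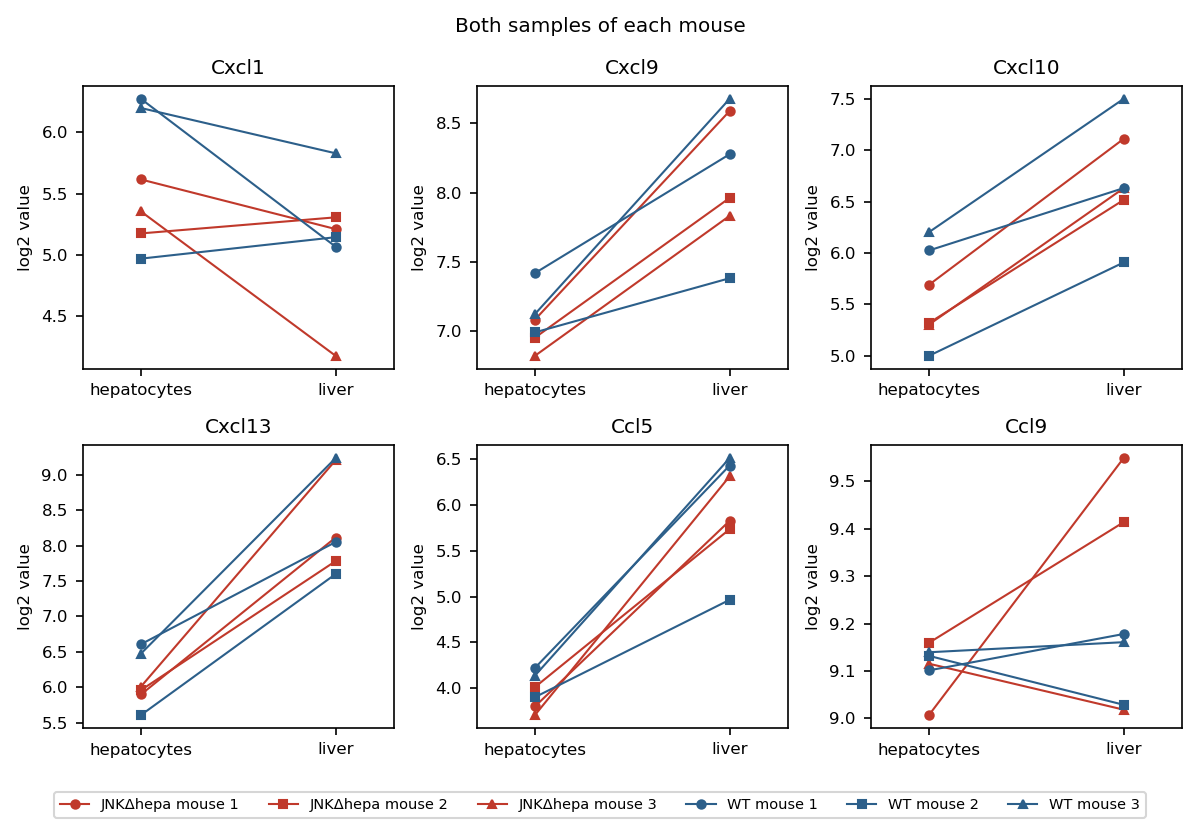
Log2 values of 6 ligands (y axis, a separate scale in each panel) in hepatocytes and liver of each mouse, joined by a line; red stands for JNKΔhepa, blue for WT, and the marker shape for the mouse. WT mouse 2 (blue squares) has the lowest Cxcl10 in both samples, at 4.997 in hepatocytes and 5.91 in liver, and Cxcl1 and Ccl9 show no common direction between tissues.

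Since each mouse gave both samples, the ligands above background in all groups were also set against themselves across the 6 mice. Cxcl10 had r = 0.82 (exact permutation p 0.0375, two-sided) and rho = 0.89 (exact permutation p 0.0333) between hepatocytes and liver. Over the 10 ligands tested neither value held after Benjamini-Hochberg adjustment (0.375 and 0.333), and without the 2 mice farthest from the median r was 0.30, so the relation rests on those mice, while r of the deviations from each genotype's mean was 0.91 over all 6. The other 9 ligands had r from -0.54 to 0.48 with exact permutation p of 0.289 or more. Across all 12 arrays the genes most like Cxcl10 were Arsa (r = 0.939), Cxcl9 (r = 0.939) and Sema4b (r = 0.934), and for Cxcl16 they were Prelp, Ptprb and Cd300ld (r = 0.998, 0.998 and 0.997). These correlations are descriptions over 12 arrays that share the shift between tissues.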

How the data were processed

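Total RNA of 12 samples was hybridised to a whole-transcript array. The deposited values are log2 expression levels per probe set made by the authors with RMA, per the submitters' processing notes. For the software version and the definition of the probe sets, as for the genome build, no source used here gives an entry. The array medians differ between tissues but hardly within them, and whether the tissues were normalised together is not stated. Of 35556 probe sets, 21218 have 1 symbol in the platform annotation, 1881 several and 12457 none. The brightest single-symbol probe set stood for each of 18820 genes.

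All 12 arrays were fitted in limma 3.58.1 (R 4.3.3) with 1 mean per group (residual df 8) and Benjamini-Hochberg adjustment over all genes at 0.05. Tested were genotype in each tissue, their difference, and hepatocytes minus liver in each genotype. The method was tested on simulated data. Promoters were matched by symbol with Python 3.11.15. Alternatives were joint quantile normalisation, median centring, dim probe sets left out, all probe sets averaged, other variance models, array weights, replicate blocks and each array left out. Any ligand could be named; of each other list, up to 5 genes with the smallest p past the threshold in a comparison, or 1 where none passed. Mapk8 and Mapk9 could be named too. Fos, Egr1, Atf3, Fosb, Fosl2, Mpeg1, the 4 markers given as near background, Stab1 and the genotype value of Ccr2 fall outside this rule, and the NF-kB and interferon factor motif forms were changed after narrower ones had been counted. Members and gene lists were chosen with earlier results of these data known. Arrays carry no depth, so their number (3 a group) limits the precision. The labels give the same mouse for both samples of a pair. Deviations of the 2 samples of a mouse from their group means correlated at -0.013 to 0.098 across genes. Separate mice make the replicates within each group.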

Additional observations from a re-analysis of the deposited data

How the results depend on the processing

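No ligand was called by genotype in liver, or in the test between tissues, under any alternative run. In hepatocytes the count was 0 under all alternatives except leaving out 1 array, where it was 0 to 1. With the tissues compared, all 12 arrays quantile-normalised together gave 15 ligands in JNKΔhepa and 14 in WT, in place of 29 and 30. Leaving out dim probe sets gave 13 in each, since only 15 ligands were then tested. Of the 10816 genes tested in that setting, 9803 were called in JNKΔhepa and 9650 in WT. Leaving out 1 array gave 27 to 30 in JNKΔhepa and 28 to 30 in WT. Some directions turned. Ccl9 in JNKΔhepa was 0.30 after joint normalisation and 0.64 after centring, Cxcl11 in JNKΔhepa 0.025 and 0.098, and Ccl25 after centring 0.031 in JNKΔhepa and 0.063 in WT. After centring, ligands called lower on deposited values were called higher: 7 in JNKΔhepa (-0.57 to -0.23 deposited, 0.30 to 0.65 centred) and 8 in WT (-0.56 to -0.26 and 0.27 to 0.58). Ccl4, Ccl8, Ccl11, Ccl12, Ccl28, Cxcl15 and Cxcl17 turned in both genotypes and Cxcl5 in WT, and of these Cxcl17 in JNKΔhepa alone was called after joint normalisation. Ccl9 in WT, at 0.0017 over all arrays, ranged from -0.045 to 0.029 with 1 array left out, and was below 0 without WT hepatocyte replicate 2 (-0.0021), WT hepatocyte replicate 3 (-0.0059) or WT liver replicate 2 (-0.045). Joint normalisation took off the shift shared by most genes, with a median of all genes at 0.014 in JNKΔhepa and 0.016 in WT. Centring left a shift the other way, with a median of all genes at 0.28 in JNKΔhepa and 0.26 in WT. The centred values of ligands stand beside that shift. Cxcl10 in WT lost its call between tissues without WT hepatocyte replicate 2, WT liver replicate 1 or WT liver replicate 3, and Cxcl1 in WT gained one without WT hepatocyte replicate 2 (0.89). Replicate numbers shared by JNKΔhepa and WT samples mark no common origin in the labels. With the number as a replicate block the counts were 0 in hepatocytes and 0 in liver. Deviations of same-numbered samples from their group means correlated at -0.12 to 0.11 across genes. With the mouse as a fixed replicate block, the counts were 0 for the test between tissues, 28 for JNKΔhepa and 30 for WT, and as a random block 30 and 30. The fixed block was not run for genotype within a tissue. With the random block the genotype counts were 0 in hepatocytes and 0 in liver. Each mouse gave 1 array per tissue, so a mouse block could hardly change them. With 3 arrays a group, the 95% intervals given above describe the precision of each genotype difference. They are not adjusted for the 18820 genes, while the calls are. How small a genotype difference could have been called was not tested. For the 18 ligands near background in all groups the arrays measured mainly background.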

Other observations

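Some ligands could be read only from probe sets that name several genes. The probe sets shared by Ccl21a, Ccl21b and Ccl21c, CCR7 ligands of lymphatic endothelium, carried identical values in all 4 copies. They averaged 3.37 ± 0.474 in JNKΔhepa hepatocytes and 3.10 ± 0.284 in WT hepatocytes, and 5.47 ± 0.146 in JNKΔhepa liver and 5.78 ± 0.317 in WT liver (SD, n = 3 each, log2 levels). They differed between hepatocytes and liver by -2.10 in JNKΔhepa and -2.68 in WT (-1.25 and -1.94 after all arrays were quantile-normalised together), with 1 of 3 JNKΔhepa and 2 of 3 WT hepatocyte values below their array medians, and by genotype by 0.27 in hepatocytes (limma adjusted p 0.779) and -0.31 in liver (limma adjusted p 0.767). Which of the copies was read is uncertain. The Ccl27a probe sets, which also name neighbouring predicted genes, were above background in all groups, and none was called by genotype.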
